A study of Mus musculus with 12 samples.

Results

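The 10 genes described here are identity genes of dendritic cells and of the precursors that give rise to them. They were taken by symbol from both tables of the series, and all 10 were found among 24533 genes. Siglech, Tcf4, Spib, Ccr9 and Ly6d mark plasmacytoid dendritic cells or the lymphoid-type precursors they share, and Cd209a, Batf3, Zbtb46, Itgax and Clec10a mark classical dendritic cells. The genes were chosen by name with the log2 fold changes of KO over WT in both tables in view, so their own values and calls are a description and support nothing by themselves.

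The study sequenced RNA from bone marrow of C57BL/6 mice in 12 libraries, 3 in each of 4 groups. LinNeg libraries came from marrow depleted of cells with lineage markers, with the genotype label WT or U2af1KO. LSK libraries came from marrow cells without lineage markers that carry Sca-1 and c-Kit, the fraction that holds the stem cells, with the same labels and with BMT in their source label, which is not spelled out there. U2af1 encodes the small subunit of the factor that reads the end of an intron. The labels give no deletion scheme, Cre driver, age or time after deletion, and whether each replicate is a separate mouse is not stated. The p-values then measure only how far these libraries spread, and that spread may be technical.

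Dendritic cells take up, process and present antigen. Plasmacytoid dendritic cells are the type I interferon producers of the blood and marrow and are built in the marrow under the E protein Tcf4. Classical dendritic cells fall into type 1 cells, which depend on Irf8 and Batf3, and type 2 cells, which depend more on Irf4 and carry lectins such as those encoded by Cd209a and Clec10a. Both kinds arise from progenitors that carry the receptor Flt3.

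Only the authors' deposited tables were used, with a mean over all 6 libraries of a comparison, a log2 fold change of KO over WT, its standard error and an adjusted p from DESeq2, run by the authors. Standard errors and adjusted p of KO against WT below are those of the authors' deposited tables, and fold changes are the product of their Wald statistic and standard error; differences between LSK and LinNeg, with their errors and calls, were computed from these. The value of each library is therefore not given, nor whether libraries of the 2 labels overlap. A derived mean under each label was computed from the mean and the fold change, in normalized counts, and the 2 tables were normalized separately. Called genes are those with an adjusted p under 0.05. U2af1 was higher in the libraries labelled KO, with 0.65 (standard error 0.19) on the log2 scale for LinNeg and 0.61 (standard error 0.06) for LSK, and a count over the whole gene does not check a deletion of part of it. In LSK the 4 Y-linked genes Ddx3y, Eif2s3y, Kdm5d and Uty had log2 fold changes from -9.21 to -8.95, and Xist had one of 7.49, so the sex of the mice moves with the label there and sex and label cannot be told apart. Xist stood at 10.02 (standard error 1.81) in LinNeg, with derived means of 40.0 under WT and 41468 under KO (DESeq2 adjusted p = 2.73e-07). The same 4 genes ran from -0.91 to -0.68 there, with standard errors from 1.45 to 1.99, and were not called. Derived means of these 4 genes in LinNeg ran from 1303 to 2165 under WT and from 754 to 1255 under KO. Y-linked RNA thus remained under KO there, while Xist differed strongly. Sex may be unevenly spread over the labels in LinNeg too, and without values per library it cannot be told apart from the label there. The median tested gene stood at 0.16 in LinNeg and 0.04 in LSK.

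In LinNeg cells 6 of the 10 genes were called lower in the libraries labelled KO and 1 higher. Siglech and Cd209a were close to absent under the KO label, Spib, Itgax and Clec10a stood between 5.23% and 27.8% of their WT level, Tcf4 stood at 55.1%, and Ccr9 was 3.46 times its WT level. Ly6d, Batf3 and Zbtb46 were not called. Over all 17108 tested genes 41.4% were called, 19.3% lower and 22.1% higher. After recentring on the median gene the same 6 and 1 genes were called, while the split over all genes moved from 3781 higher and 3307 lower to 3025 higher and 4116 lower. In LSK cells 4 of the 10 were called lower (Tcf4, Ccr9, Itgax and Clec10a) and 1 higher (Zbtb46), beside 61.6% of 16482 tested genes, 29.2% lower and 32.4% higher. These counts describe how the genes were chosen as much as the samples. In bulk RNA, fewer cells of a type and less RNA per cell cannot be told apart.

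**Figure D1:**
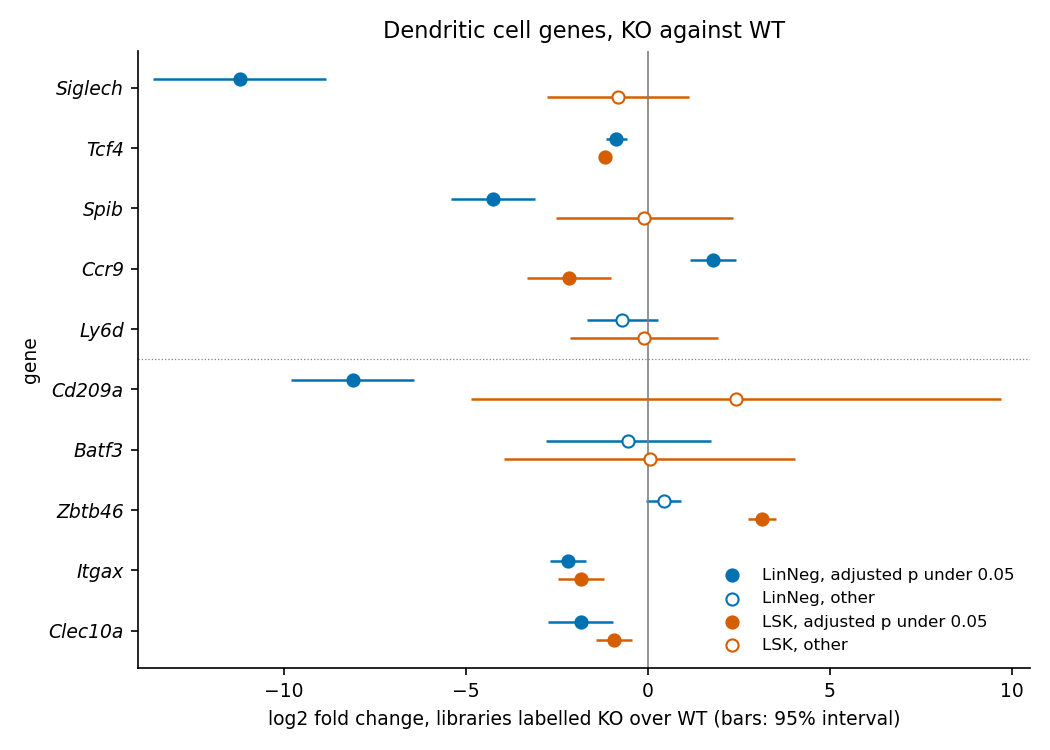
Log2 fold change of libraries labelled KO over WT (x axis) for the 10 dendritic cell genes (y axis), with 95% intervals; filled points have an adjusted p under 0.05 and the dotted line parts plasmacytoid (above) from classical genes (below). Siglech at -11.21 and Cd209a at -8.11 in LinNeg lie farthest to the left, and Zbtb46 at 3.14 in LSK and Ccr9 at 1.79 in LinNeg are the called genes to the right of 0.

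Siglech encodes a sialic acid binding receptor of the Siglec family and is the surface marker by which plasmacytoid dendritic cells of the mouse are recognised. The gene (ENSMUSG00000051504.18, protein coding) lies on chromosome 7 from 55768178 to 55778925, plus strand, in GRCm38 (mm10). In LinNeg its derived mean was 829.7 under the WT label and 0.35 under the KO label. The log2 fold change of -11.21 (standard error 1.21, DESeq2 adjusted p = 8.4e-19) was the lowest of all 17108 tested genes. Since the KO mean lies under 1 normalized count this is a fitted value and not a measured ratio. In LSK the gene was near the limit of detection under both labels, with derived means of 12.8 (WT) and 7.23 (KO) and a log2 fold change of -0.82 (standard error 0.99), whose 95% interval runs from 14.7% to 218% of the WT level.

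Tcf4 encodes the E protein, a basic helix-loop-helix factor that binds E-box DNA, on which the plasmacytoid fate depends. It was the most abundant of the 10 by mean in both tables and was lower under the KO label in both. LinNeg derived means were 3785 (WT) and 2087 (KO), a log2 fold change of -0.86 (standard error 0.14, DESeq2 adjusted p = 1.81e-08). LSK derived means were 6065 (WT) and 2672 (KO), a log2 fold change of -1.18 (standard error 0.07, DESeq2 adjusted p = 2.07e-69). The gene (ENSMUSG00000053477.17) lies on chromosome 18 and has 62 annotated transcripts, which the tables do not separate.

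Spib encodes an ETS factor close to PU.1 that acts in plasmacytoid dendritic cells and in B cells. The gene (ENSMUSG00000008193.13) spans bases 44525993 to 44532071 of chromosome 7 on the minus strand. In LinNeg the derived mean was 426.7 under WT and 22.3 under KO, a log2 fold change of -4.26 (standard error 0.59, DESeq2 adjusted p = 7.14e-12), which is 5.23% of WT with a 95% interval from 2.35% to 11.6%. In LSK the derived means were 126.5 and 118.3, and the log2 fold change of -0.10 had a standard error of 1.24, with an interval from 17.4% to 503% of WT. That standard error was 5.18 times the median of the 200 genes nearest in mean, and the interval spans both directions widely.

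Ly6d, a GPI-anchored surface protein, parts lymphoid progenitors committed towards B cells and plasmacytoid dendritic cells from uncommitted ones. The gene (ENSMUSG00000034634.7) spans bases 74762056 to 74763620 of chromosome 15 on the minus strand, in a cluster of Ly6 genes. It was called in neither table. LinNeg derived means were 601.6 (WT) and 370.1 (KO), a log2 fold change of -0.70 (standard error 0.50), and LSK derived means were 50.2 and 46.8, a log2 fold change of -0.10 (standard error 1.04). The standard error of Ly6d was 2.75 times the median of genes of near mean in LSK and 1.89 times in LinNeg, and that of Spib was 5.18 and 1.57 times.

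Spib and Ly6d are also expressed by B cells, and the B cell markers showed the same spread in LSK. Of 12 such markers 7 had a standard error over 1.5 times the median of genes of near mean, against 3.59% of all genes, and the ratio was 5.78 for Cd79a, 7.56 for Ms4a1 and 4.67 for Pax5, examples chosen after their values were seen. In LinNeg 0 of the 12 passed that ratio, while Spib and Ly6d themselves did. Other marker lists also had such genes in LSK, with 9 of 10 erythroid, 9 of 12 neutrophil, 7 of 10 mast cell and 7 of 12 monocyte markers, and the median ratio was 4.78 for B cell, 2.93 for erythroid, 1.63 for neutrophil, 2.82 for mast cell and 1.56 for monocyte markers. The summed derived mean of the 12 markers was 1453 (WT) and 1271 (KO) in LSK and 2227 and 1330 in LinNeg, where 4 fell and 0 rose, and none was listed at 0. Over all tested genes in LinNeg 19.3% were called lower and 22.1% higher. Cd22 fell by 5.01 (standard error 0.32) in LinNeg, and Cd79b fell by 0.80 (standard error 0.18) in LSK. Which libraries gave this spread cannot be read from the tables. The part of B cell RNA in the values of Spib and Ly6d was not tested.

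**Figure D2:**
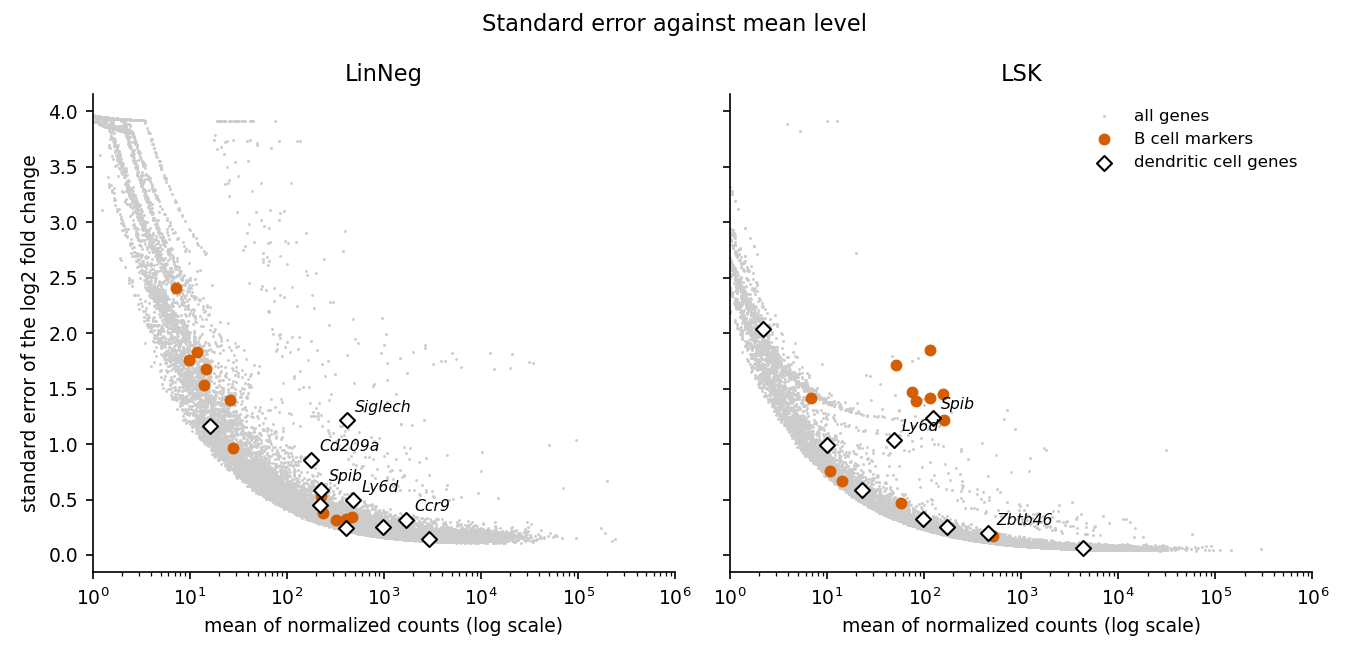
Standard error of the log2 fold change (y axis) against the mean of normalized counts (x axis, log scale) in LinNeg (left) and LSK (right) for all genes with a mean of at least 1 (grey), B cell markers (orange) and the dendritic cell genes (diamonds, named where the ratio to genes of near mean is over 1.5). In LSK Spib and Ly6d stand above the grey band among the B cell markers, with ratios of 5.18 and 2.75; Cd209a, with an LSK mean of 0.49, is not drawn there.

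Ccr9 encodes the receptor for the gut chemokine Ccl25 and is carried by plasmacytoid dendritic cells, by lymphoid progenitors that home to the thymus, and by T cells. It moved in opposite directions in the 2 tables. In LinNeg the derived mean was 748.6 under WT and 2591 under KO, a log2 fold change of 1.79 (standard error 0.32, DESeq2 adjusted p = 1.52e-07), or 3.46-fold with an interval from 2.25 to 5.33. In LSK the level was low, 37.2 (WT) and 8.24 (KO), and the log2 fold change was -2.17 (standard error 0.59, DESeq2 adjusted p = 0.00049). Ccr9 (ENSMUSG00000029530.16) lies on chromosome 9 from 123678439 to 123784330, plus strand, and its annotated span takes in Lztfl1 on the other strand with 0 shared exonic bases. Slc6a20a overlaps 22 exonic bases on the other strand, and AC165425.1, on the other strand and in neither table, overlaps 1932 exonic bases, so without a stated strand their reads cannot be told apart from those of Ccr9. Gm17200, a long noncoding RNA on the same strand and in neither table, shares 269 exonic bases with Ccr9.

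T and NK cell markers were higher beside Ccr9 in LinNeg. Of 8 tested markers 4 rose and 0 fell, among them the NK receptors Klrb1c at 1.39 (standard error 0.31) and Ncr1 at 1.14 (standard error 0.29). Over all tested genes in LinNeg 22.1% were called higher and 19.3% lower. The CD3 chain genes Cd3e and Cd3d, named after their values were seen, stood at 3.42 (standard error 1.17) and 3.88 (standard error 0.85) with no p listed, which DESeq2 withholds where a library is an outlier for a gene. The summed derived mean of the 11 markers in the tables was 1892 under WT and 5713 under KO, and none was listed at 0. Of these 11, 5 had a standard error over 1.5 times the median of genes of near mean, against 5.37% of all genes. Lck, not called in LinNeg, had the ratio 4.66 and a derived KO mean of 1624, and Ccr9 itself had the ratio 1.75. Which libraries gave this spread cannot be read. In LSK 0 rose and 1 fell (Lck, -2.12, standard error 0.20), with summed means of 510.7 and 208.8. There 32.4% of all tested genes were called higher and 29.2% lower. The part of T and NK cell RNA in the Ccr9 values was not tested.

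The starts of Siglech and Ccr9 are shown because both genes belong to the plasmacytoid program and differed in direction in LinNeg. RefSeq holds 300 bases, from 250 before to 50 after the start of 1 transcript, for 7 of the 10 genes in GRCm38.p6. The RefSeq starts of Ccr9 and Zbtb46 lie inside the GENCODE spans printed for these genes, which take in transcripts that begin farther upstream. In the Zbtb46 window the bases just before the start are a pyrimidine run ending in CAG, the letters found at the end of an intron. That window may therefore be intron and not promoter, which was not tested. E proteins such as that of Tcf4 bind the E-box CACCTG, which reads as CAGGTG on the other strand and is in capitals here, and both promoters hold 1 copy. Siglech is at chr7:55767934-55768233, plus strand, with the match at base -20, and Ccr9 at chr9:123766961-123767260, plus strand, with the match at base -85.
Siglech: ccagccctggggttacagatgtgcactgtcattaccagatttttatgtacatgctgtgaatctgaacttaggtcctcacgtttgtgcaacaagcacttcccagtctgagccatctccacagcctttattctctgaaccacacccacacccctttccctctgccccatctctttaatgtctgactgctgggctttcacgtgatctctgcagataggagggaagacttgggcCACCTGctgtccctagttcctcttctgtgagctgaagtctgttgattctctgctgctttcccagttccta
Ccr9: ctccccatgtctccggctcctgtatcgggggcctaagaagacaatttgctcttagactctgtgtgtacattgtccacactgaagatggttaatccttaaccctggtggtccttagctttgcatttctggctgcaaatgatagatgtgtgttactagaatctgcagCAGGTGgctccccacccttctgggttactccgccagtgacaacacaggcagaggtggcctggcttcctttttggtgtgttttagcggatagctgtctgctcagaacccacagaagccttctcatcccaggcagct
The E-box was in 3 of the 7 RefSeq start windows (Siglech, Ccr9 and Zbtb46, the last possibly intron) and in 20.2% of 32851 promoters of the RefSeq table. Matches were counted on both strands. A match is a description and not a binding site, and it was present in a gene that stood higher and in a gene that stood lower in LinNeg.

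Cd209a encodes a mouse relative of DC-SIGN, a C-type lectin of monocyte-derived and type 2 dendritic cells. The gene (ENSMUSG00000031494.7) spans bases 3743397 to 3748984 of chromosome 8 on the minus strand. In LinNeg the derived mean was 355.8 under WT and 1.29 under KO, a log2 fold change of -8.11 (standard error 0.86, DESeq2 adjusted p = 1.29e-19), rank 9 from the lowest of the tested genes. In LSK the mean over 6 libraries was 0.49, the gene had no adjusted p, and no fold is given.

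Clec10a encodes a galactose-binding lectin of type 2 dendritic cells and macrophages, and its neighbour Mgl2 is a near-identical copy, so reads may be split between them. The gene (ENSMUSG00000000318.16) lies on chromosome 11 from 70156197 to 70170834, plus strand, 18.6 kb from Mgl2. LinNeg derived means were 340.0 (WT) and 94.7 (KO), a log2 fold change of -1.84 (standard error 0.45, DESeq2 adjusted p = 0.000241). LSK derived means were 226.4 and 119.5, a log2 fold change of -0.92 (standard error 0.25, DESeq2 adjusted p = 0.000457), which is less than 2-fold. Mgl2 moved the other way in LSK, from 22.1 to 162.5 (log2 fold change 2.87, standard error 0.31, DESeq2 adjusted p = 1.46e-19), and stood at -3.01 (standard error 2.28) in LinNeg, where its mean was 8.71.

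Itgax encodes CD11c, the integrin alpha chain that serves as the general surface marker of dendritic cells and is carried by some monocytes, macrophages and NK cells too. The gene (ENSMUSG00000030789.9) lies on chromosome 7 from 128129547 to 128150657, plus strand. Its decrease was of like size in both tables. In LinNeg the derived means were 1614 (WT) and 351.2 (KO), a log2 fold change of -2.20 (standard error 0.25, DESeq2 adjusted p = 4.71e-17), or 21.8% of WT with an interval from 15.5% to 30.6%. In LSK they were 150.7 and 42.3, a log2 fold change of -1.83 (standard error 0.32, DESeq2 adjusted p = 3.14e-08), or 28.0% of WT with an interval from 18.2% to 43.3%.

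Zbtb46 encodes a zinc finger repressor that sets classical dendritic cells apart from other myeloid cells and is also expressed in erythroid progenitors and endothelium. The gene (ENSMUSG00000027583.13) spans bases 181387762 to 181459426 of chromosome 2 on the minus strand. In LSK it was the exception among the 10, with derived means of 92.3 under WT and 812.0 under KO, a log2 fold change of 3.14 (standard error 0.20, DESeq2 adjusted p = 1.65e-54), or 8.80-fold with an interval from 6.71 to 11.5. In LinNeg the derived means were 342.0 and 464.9, a log2 fold change of 0.44 (standard error 0.25, DESeq2 adjusted p = 0.138), so a change from 97.4% to 190% of WT is within the interval. Batf3, the AP-1 family factor of type 1 dendritic cells, was too low to judge: its derived means were 19.0 and 13.1 in LinNeg and 2.16 and 2.24 in LSK, with standard errors of 1.16 and 2.04 on the log2 scale. Batf3 (ENSMUSG00000026630.9) lies on chromosome 1 from 191097847 to 191108945, plus strand.

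Erythroid markers were higher beside Zbtb46 in LSK, where 9 of 9 tested markers rose, such as Tfrc at 2.85 (standard error 0.10) and Epor at 2.72 (standard error 0.12). Their summed derived mean was 14744 under WT and 94256 under KO. In LinNeg, where Zbtb46 was not called, 8 of 9 rose and 0 fell and the sum went from 16569 to 75919. Over all tested genes 32.4% were called higher in LSK and 22.1% in LinNeg. The globin genes Hba-a1 and Hbb-bt were listed at 0 in LinNeg, and Hbb-bt in LSK. The part of erythroid RNA in the Zbtb46 values was not tested.

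Itgax and Zbtb46 are shown as classical dendritic cell genes with opposite calls in LSK whose RefSeq start windows both hold an AP-1 match. The Zbtb46 window may be intron, as said above. BATF factors act at AP-1 sites, TGANTCA, which read the same on both strands and are in capitals below along with the E-box of Zbtb46. Itgax is at chr7:128129300-128129599, plus strand, with the AP-1 match at base -56, and Zbtb46 at chr2:181424339-181424638, minus strand, with it at base -61.
Itgax: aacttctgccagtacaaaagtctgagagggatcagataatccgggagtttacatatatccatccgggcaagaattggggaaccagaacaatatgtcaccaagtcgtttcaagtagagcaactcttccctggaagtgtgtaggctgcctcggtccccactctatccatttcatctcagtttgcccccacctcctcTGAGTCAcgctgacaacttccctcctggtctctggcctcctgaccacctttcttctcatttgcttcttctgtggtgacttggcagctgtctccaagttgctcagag
Zbtb46: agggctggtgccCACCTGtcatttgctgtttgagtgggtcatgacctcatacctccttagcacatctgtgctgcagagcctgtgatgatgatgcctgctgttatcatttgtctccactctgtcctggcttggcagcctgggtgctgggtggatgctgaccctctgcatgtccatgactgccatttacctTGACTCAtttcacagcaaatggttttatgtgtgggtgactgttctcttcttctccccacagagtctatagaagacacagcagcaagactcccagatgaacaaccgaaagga
The AP-1 letters were in 2 of the 7 windows, those of Itgax and Zbtb46, and in 7.81% of all promoters of the table. The PU.1 core GAGGAAG was in 1 of the 7 (Batf3) and in 13.6% of all, and the interferon response element in 0 of the 7 and in 3.44% of all. Nothing about binding follows from these letters.

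Monocytes and macrophages share Itgax and Clec10a with dendritic cells, and their markers did not run parallel in the 2 tables. In LinNeg 9 of 12 monocyte and macrophage markers fell and 0 rose, with a summed derived mean of 61523 under WT and 7821 under KO. The pore-forming protein Mpeg1 stood at -7.10 (standard error 0.14). In LSK 7 rose and 1 fell, with sums of 5965 and 8493, while Itgax and Clec10a were called lower. Over all tested genes 19.3% were called lower and 22.1% higher in LinNeg, and 29.2% lower and 32.4% higher in LSK. None of the 12 was listed at 0, and the part of monocyte RNA in the values of Itgax and Clec10a was not tested. Csf1r, Cx3cr1 and Ly6c2 of this list are also in the further dendritic cell lists below, so the counts of these lists are not separate.

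**Figure D3:**
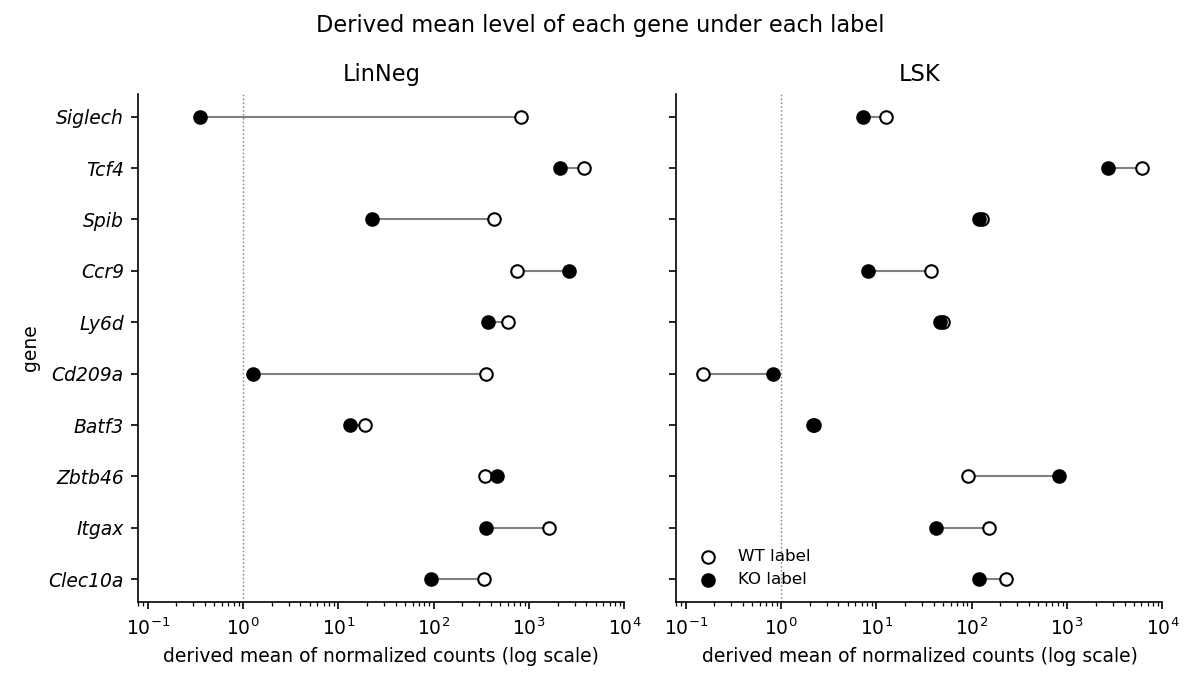
Derived mean of normalized counts (x axis, log scale) of each gene (y axis) under the WT label (open) and the KO label (filled) in LinNeg (left) and LSK (right); the dotted line marks 1 normalized count. Under the KO label in LinNeg Siglech lies at 0.35 and Cd209a at 1.29, whereas Tcf4 lies at 2087.

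Levels of different genes were compared per kilobase of annotated exon, as derived means under the WT label. In LinNeg Ly6d led with 808.7 normalized counts per kilobase, followed by Itgax (336.0), Siglech (245.3), Cd209a (224.7), Spib (148.8), Tcf4 (138.2), Clec10a (117.3), Ccr9 (73.0), Zbtb46 (40.2) and Batf3 (11.9). In LSK the order was Tcf4 (221.5), Clec10a (78.1), Ly6d (67.5), Spib (44.1), Itgax (31.4), Zbtb46 (10.85), Siglech (3.77), Ccr9 (3.62), Batf3 (1.35) and Cd209a (0.0964). Siglech and Cd209a thus stood near the top of the order in WT LinNeg cells and near its end in WT LSK cells, and Tcf4 led only in LSK. No spread over libraries is given for these levels, so neighbours in the order, such as Siglech and Cd209a in LinNeg or Siglech and Ccr9 in LSK, cannot be ranked, and the length is that of all annotated exons together.

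Further dendritic cell genes were read from 5 lists that leave out the 10 genes, with 87 genes in all. In LinNeg 43 of 85 tested genes fell and 8 rose (median -1.31, beside 0.16 for all tested genes). In LSK 30 of 84 fell and 18 rose (median -0.29, beside 0.04). Over all tested genes 19.3% were called lower and 22.1% higher in LinNeg, and 29.2% lower and 32.4% higher in LSK. The counts of each list below stand beside these shares. The lists were chosen with earlier results of these data known, so their counts are a description and support nothing by themselves. No set test was made of these counts.

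Other plasmacytoid genes fell in 16 of 25 and rose in 0 in LinNeg (median -1.49). Irf8, the transcription factor of the dendritic and monocyte lineages, fell from a derived mean of 23519 to 349.5 (log2 fold change -6.07, standard error 0.15, DESeq2 adjusted p listed as 0). Ly6c2, carried by plasmacytoid cells and by monocytes, fell by 3.60 (standard error 0.18). In LSK 7 of 25 fell and 6 rose, 4 after recentring (median -0.28). Runx2, which acts in plasmacytoid cell release from the marrow, fell by 1.97 (standard error 0.10) and Ptprcap fell by 1.16 (standard error 0.07), while Ly6c2 rose by 2.27 (standard error 0.14).

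Precursor genes and receptors fell in 16 of 20 and rose in 0 in LinNeg (median -1.76). The MD-1 protein gene Ly86 fell by 6.55 (standard error 0.28), the receptor of macrophage colony-stimulating factor Csf1r fell by 5.53 (standard error 0.24) and the fractalkine receptor Cx3cr1 fell by 4.06 (standard error 0.19). In LSK 10 of 20 fell and 5 rose (median -0.32). There Flt3, the cytokine receptor on which dendritic cell output depends, fell from a derived mean of 11046 to 492.5 (log2 fold change -4.49, standard error 0.26, DESeq2 adjusted p = 2.91e-65), Notch1 fell by 2.05 (standard error 0.10) and Kit fell by 0.98 (standard error 0.05).

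Genes of type 1 classical dendritic cells fell in 5 of 15 and rose in 2 in LinNeg (median -0.59). The dead-cell receptor Clec9a fell from a derived mean of 1018 to 13.1 (log2 fold change -6.28, standard error 0.37) and Wdfy4, needed for cross-presentation, fell by 2.87 (standard error 0.15). Cd24a, which is abundant in erythroid cells as well, rose by 1.82 (standard error 0.20). In LSK 3 of 15 fell and 4 rose (median 0.01), beside 29.2% lower and 32.4% higher over all tested genes, so nothing is read from these counts. Wdfy4 stood at -1.26 (standard error 0.08), Gcsam at -2.03 (standard error 0.44) and Cd24a at 1.01 (standard error 0.07). Xcr1, the chemokine receptor that defines type 1 cells and was named after its values were seen, was listed with means of only 6.6 in LinNeg and 20.4 in LSK and was called in neither.

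Type 2 classical genes were mixed, with 5 of 14 lower and 4 higher, 2 after recentring, in LinNeg (median -0.49). Over all tested genes there 19.3% were lower and 22.1% higher. The inhibitory lectin Clec12a fell by 4.14 (standard error 0.28), the transcription factor Klf4 fell by 3.21 (standard error 0.30) and the CD47 receptor Sirpa fell by 2.42 (standard error 0.24). Irf4, the factor of type 2 cells, rose by 1.66 (standard error 0.41, DESeq2 adjusted p = 0.000265) in LinNeg and was chosen after its value was seen. In LSK 8 of 14 fell and 3 rose (median -0.70): the adhesion protein Esam, which stem cells also carry, fell by 3.64 (standard error 0.16), and Tmem176b and Tmem176a fell by 1.64 (standard error 0.08) and 1.54 (standard error 0.11). Clec4a4 was listed at 0 in both tables.

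Maturation genes were mostly low and mostly not called. In LinNeg 1 of 11 fell (the migration receptor Ccr7, by 3.95, standard error 0.92) and 2 rose, the cytokine signalling inhibitor Socs2 by 2.86 (standard error 0.30) and the chemokine Ccl5 by 1.69 (standard error 0.32). In LSK 2 of 10 fell, namely Cd86, a ligand for T cell costimulation, by 1.28 (standard error 0.50) and Cd200 by 3.11 (standard error 0.48), and 0 rose.

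**Figure D4:**
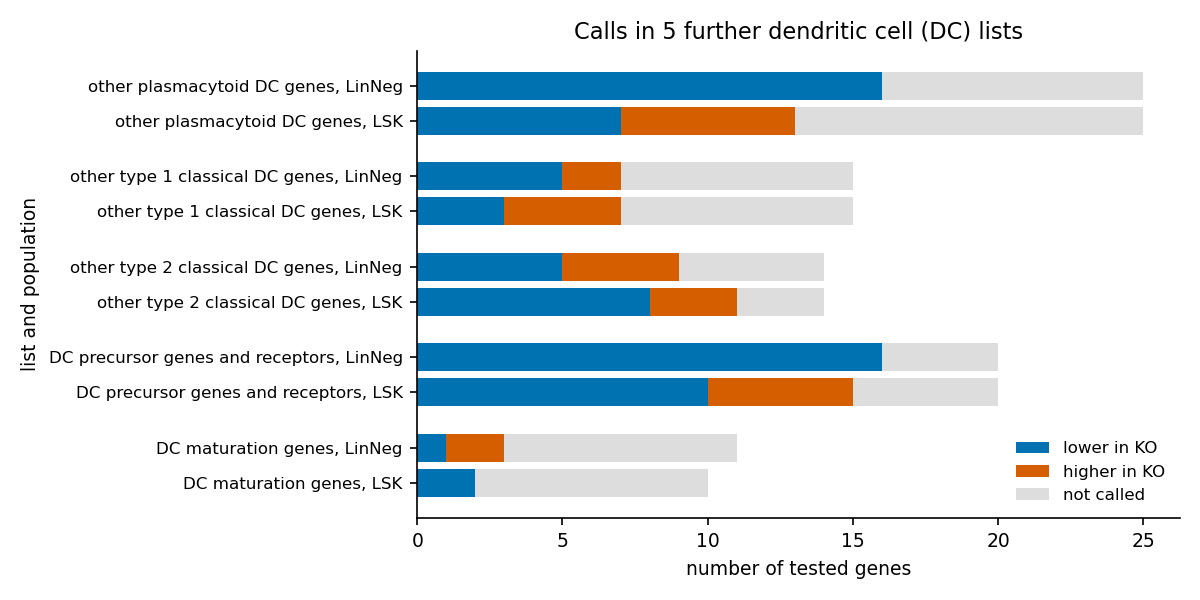
Number of tested genes (x axis) called lower (blue), called higher (orange) or not called (grey) in each of 5 further dendritic cell lists in LinNeg and LSK (y axis). The plasmacytoid and precursor lists hold 16 lower and 0 higher genes each in LinNeg, against 7 lower with 6 higher and 10 lower with 5 higher in LSK.

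Families of the 10 genes were read member by member. Of the E proteins, Tcf3 stood higher under KO, at 0.49 (standard error 0.18) in LinNeg, a call lost on recentring, and at 0.69 (standard error 0.06) in LSK, where Tcf12 stood at -0.23 (standard error 0.05). Among the Id proteins, which bind E proteins and block them, Id1 fell by 1.31 (standard error 0.32) in LinNeg and rose by 2.90 (standard error 0.28) in LSK, where Id4 rose from a derived mean of 0.35 to 21.4. Id2, the inhibitor that favours classical over plasmacytoid fate, stood at 0.58 (standard error 0.26, not called) in LinNeg and 0.51 (standard error 0.23, DESeq2 adjusted p = 0.0463) in LSK, a call lost on recentring. Id3 was called in neither table.

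Spi1, which encodes PU.1, fell with Spib in LinNeg, by 3.15 (standard error 0.15), and fell by 0.48 (standard error 0.09) in LSK, while Spic was called in neither. Batf stood at -0.12 (standard error 0.29) in LinNeg and fell by 0.46 (standard error 0.13) in LSK, and Batf2 fell by 0.89 (standard error 0.31) in LSK. All 5 of the beta 2 integrin subunits fell in LinNeg, from -2.20 for Itgax to -1.38 for Itgal. In LSK Itgax was the lowest of the 5 at -1.83, Itgam fell by 0.78 (standard error 0.10), Itgal fell by 0.45 (standard error 0.08), Itgb2 rose by 0.27 (standard error 0.10) and Itgad was not called. The CD209 paralogs were listed at 0 or with means of at most 6.78 in LinNeg, where Cd209d, Cd209e and Cd209f were called lower with derived KO means of 0.18 or less. How reads that match several of these genes were counted is not given, so the value of Cd209a is uncertain to that extent.

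Among the other Siglec genes in LinNeg, Cd22 fell by 5.01 (standard error 0.32) and Siglecg fell by 3.81 (standard error 0.41). Cd33 fell there by 1.79 (standard error 0.41) and Siglecf by 1.72 (standard error 0.25), and Mag rose by 2.59 (standard error 0.32). In LSK Cd33 fell by 2.49 (standard error 0.25), while Siglecf rose by 0.48 (standard error 0.12) and Mag by 2.95 (standard error 0.97). Siglec1, Siglece and Siglec15 were called in neither table. Among the CC chemokine receptors, Ccr9, Ccr8 (2.76, standard error 0.59) and Ccr10 (1.42, standard error 0.51) rose in LinNeg, while Ccr1, Ccr2, Ccr3 and Ccr7 fell by 2.35, 0.98, 1.60 and 3.95. In LSK Ccr9 was the only receptor of the 8 tested that fell, and Ccr1, Ccr2 and Ccr4 rose by 1.28 to 4.57. Of the Ly6 genes, Ly6a, which encodes Sca-1, rose by 2.20 (standard error 0.28) in LinNeg and fell by 0.82 (standard error 0.12) in LSK, and Ly6e fell by 1.57 (standard error 0.12) in LinNeg and stood at -0.01 (standard error 0.07) in LSK. Ly6c1 rose by 2.89 (standard error 0.47) in LinNeg, and Ly6h and Gml rose in LSK from derived WT means under 1.

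The KO effects in LSK and LinNeg were set side by side as the log2 fold change in LSK minus that in LinNeg. The LSK libraries also carry BMT in their label. Y-linked genes were called lower under KO in LSK and were not called in LinNeg. Population, BMT and sex therefore cannot be told apart in these differences. Of the 10 genes 9 had an adjusted p in both tables, and 4 differed with a Benjamini-Hochberg adjusted p under 0.05 over all 15735 genes (two-sided normal test), 3 with a higher value in LSK and 1 with a lower. Over all genes 31.9% differed, 17.4% with a higher value in LSK and 14.5% with a lower. Siglech differed by 10.39 (standard error 1.57), Spib by 4.16 (standard error 1.37), Zbtb46 by 2.69 (standard error 0.32) and Ccr9 by -3.97 (standard error 0.67). Since the genes were chosen with these fold changes in view, the calls are a description and nothing is read from their count. The Spib difference carries the LSK standard error described above, and Siglech was low under both labels in LSK. For Itgax the difference was 0.37 with a 95% interval from -0.43 to 1.16, for Clec10a 0.92 (from -0.09 to 1.94) and for Tcf4 -0.32 (from -0.63 to -0.02, not called over all genes), and intervals for Ly6d (from -1.66 to 2.86) and Batf3 (from -4.01 to 5.18) were wide. Of the further dendritic cell genes 38 of 84 had a higher and 13 a lower value in LSK, among them 12 and 0 of the 25 plasmacytoid genes and 13 and 2 of the 20 precursor genes. Tlr9, the DNA sensor of plasmacytoid cells, was chosen after its value was seen: it stood at -9.80 (standard error 0.87) in LinNeg and -0.28 (standard error 0.42) in LSK. Its derived KO mean in LinNeg was 0.97, so the value there is fitted and not a measured ratio. Tlr7 of the same list, also named after its values were seen, stood at -1.49 (standard error 0.40) in LinNeg and -2.94 (standard error 0.60) in LSK. Its difference of -1.45 (standard error 0.72) was not called.

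**Figure D5:**
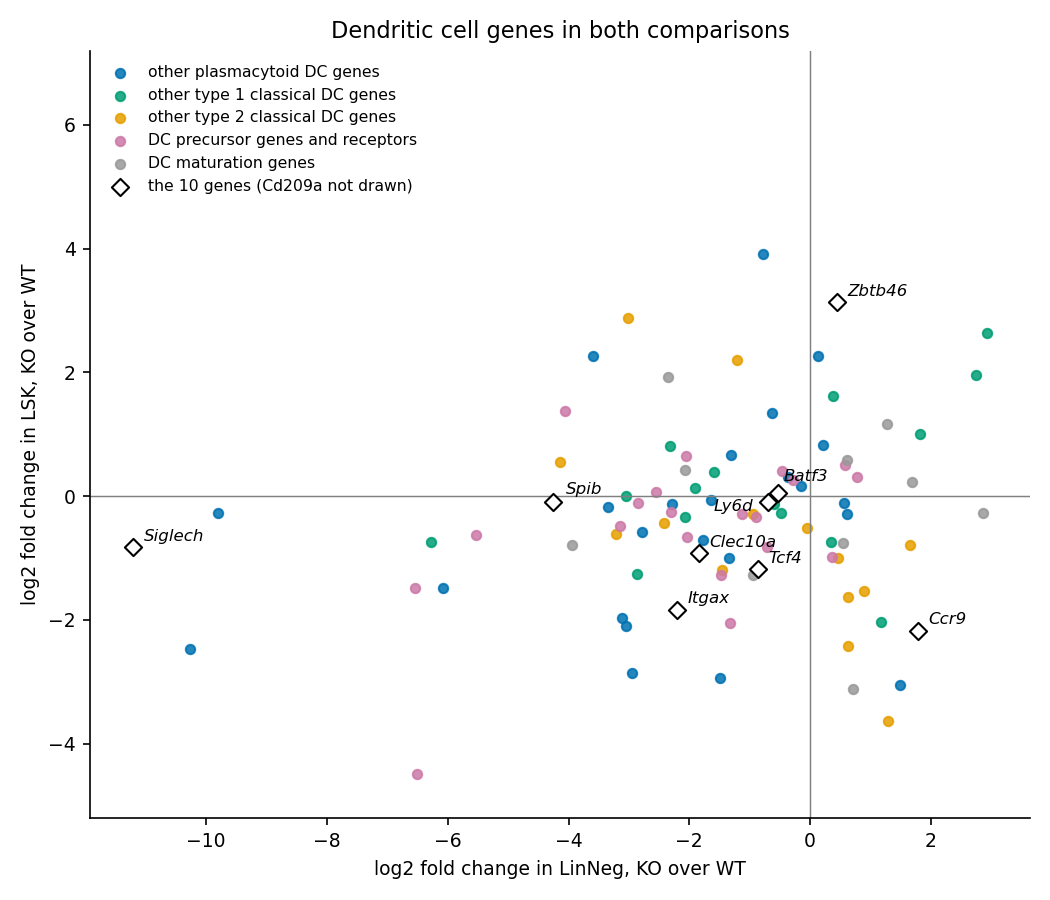
Log2 fold change in LSK (y axis) against that in LinNeg (x axis) for the genes of the 5 further dendritic cell (DC) lists tested in both tables (coloured points) and for the 10 genes except Cd209a (diamonds). Cd209a has no adjusted p in LSK and is not drawn. Siglech and Spib lie far left near 0 on the LSK axis, Itgax, Clec10a and Tcf4 lie low in both, Ccr9 lies right and low, and Zbtb46 lies high.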

How the data were processed

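RNA was measured in 12 libraries of sorted mouse marrow cells, made per the labels' protocols by lineage depletion on magnetic columns, flow sorting, ribosomal RNA depletion and a NEBNext Ultra II kit. HISAT2, StringTie, SAMtools 1.10, mm10 and DESeq2 are named per the submitters' processing notes. How reads were counted, on which annotation and strand, is not given in the sources used here. The 2 tables hold the authors' comparisons of 3 KO with 3 WT libraries. Per the file headers, the authors' values are a mean of normalized counts (a signal on a linear scale), a log2 fold change and the standard error of it (log2 as well), a Wald statistic (a score), a p-value and an adjusted p-value. Depth per library is unknown, and samples per group limit the precision.

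Each table had 24542 rows, of which 5 that name no gene and 4 with repeated symbols were left out. Reads without a feature were 38.0% of the summed means in LinNeg and 26.4% in LSK. Because the deposited fold changes are rounded, each was taken as the product of Wald statistic and standard error. Derived means take 3 libraries per label. Intervals are 95% normal intervals. Gene models are GENCODE M21 (GRCm38), which held 97.0% of the symbols. The test of the difference was tested on simulated data. Members and gene lists were chosen with earlier results of these data known. Named were all 10 genes, U2af1, up to 3 called genes per dendritic cell list and table with a mean of at least 50 by Wald statistic, family members, and up to 2 genes per other cell type list. Others named, such as Cd86, the second gene to fall in its list, and those marked so in the text, were chosen after their values were seen; some genes that this rule names are not reported here. Alternatives were a threshold of 0.01, adjustment over every gene with a p or over means of at least 50, recentring on the median, and a 2-fold minimum. Calculations used scipy 1.17.1, numpy 2.4.6 and pandas 2.3.3 under Python 3.11.15, with plots from matplotlib 3.10.9.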

Additional observations from a re-analysis of the deposited data

Results flagged for a closer look

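Of the 9 genes with an adjusted p in both tables, 4 had a difference between the KO effects in LSK and LinNeg that was called in the test of the difference over all 15735 genes, where 31.9% of all genes were called. The 10 genes were chosen with both fold changes in view, so these 4 values are a description and nothing is read from their number. The value in LSK minus that in LinNeg was 10.39 for Siglech, 4.16 for Spib, 2.69 for Zbtb46 and -3.97 for Ccr9 on the log2 scale. Population, the BMT label and sex cannot be told apart in these differences. Ccr9 is the gene of these 4 that was called in both tables, in opposite directions.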

How the results depend on the processing

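The counts of the 10 genes called in LinNeg (6 lower, 1 higher) and in LSK (4 lower, 1 higher) stayed within 1.5 times under a threshold of 0.01, under both other sets of genes for the adjustment, under recentring and under a 2-fold minimum. With a 2-fold minimum the LinNeg counts over all genes became 2403 higher and 1640 lower and the LSK counts 1607 and 2125, and the further dendritic cell genes in LSK became 9 higher and 18 lower; Tcf4 in LinNeg and Clec10a in LSK then drop out, as changes under 2-fold. Where means had to be at least 50 in each population, the number of the 10 genes with a lower value in LSK was 0 and with a higher value 2, because Ccr9 and Siglech, with LSK means of 22.7 and 9.99, are left out. The difference for Spib misses a threshold of 0.01 (adjusted p = 0.0101). No paired analysis was possible because the tables hold no values per library, and leaving out single libraries was not run for the same reason. Low levels limit what can be said of Batf3 in both tables and of Siglech and Cd209a in LSK.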

Other observations

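Genes beside Ccr9 on chromosome 9 were read after its value was seen. In the authors' deposited table for LinNeg, Lztfl1 stood at 1.53 (standard error 0.29), Slc6a20a at 2.11 (standard error 0.40) and the chemokine receptor gene Cxcr6, 22.1 kb beyond Ccr9, at 1.71 (standard error 0.38), all called higher as Ccr9 was. Slc6a20b, at a mean of 6.53, stood at 6.13 (standard error 2.26), Sacm1l at 0.15 (standard error 0.14, not called) and Fyco1, whose span holds Cxcr6, at -0.50 (standard error 0.19, called lower). In LSK the authors' deposited table gave Lztfl1 0.10 (standard error 0.10), Slc6a20a 2.95 (standard error 0.46), Cxcr6 0.62 (standard error 0.75), Sacm1l 0.28 (standard error 0.06, called higher) and Fyco1 -0.56 (standard error 0.08, called lower), and it listed Slc6a20b at 0.

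Neighbours of Itgax and Siglech were likewise picked after their values were seen. Around Itgax on chromosome 7, the authors' deposited table for LinNeg gave lower values for both integrin neighbours, Itgam at -1.66 (standard error 0.23) and Itgad at -1.62 (standard error 0.56), and for Cox6a2, a gene abundant in plasmacytoid dendritic cells 54.8 kb away, at -3.05 (standard error 0.58). Trim72 stood at 3.26 (standard error 1.44, not called) there, at a mean of 18.3. In LSK Itgam stood at -0.78 (standard error 0.10, called lower), Itgad at 0.28 (standard error 0.81), Cox6a2 at -2.10 (standard error 1.15) and Trim72 at 1.38 (standard error 2.26). Beside Siglech, Tubgcp5 at 15.2 kb stood at -0.78 (standard error 0.16) and Cyfip1 at -0.95 (standard error 0.14) in LinNeg, and Luzp2, 499.3 kb away, at 1.38 (standard error 0.83, not called), against -11.21 for Siglech itself. In LSK Tubgcp5 stood at 0.13 (standard error 0.08, not called), Cyfip1 at -0.33 (standard error 0.07, called lower) and Luzp2 at 1.58 (standard error 0.73, called higher).

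Marker lists of 4 further cell types were read beside the dendritic cell genes in the authors' deposited tables. Neutrophil markers fell in 8 of 11 and rose in 0 in LinNeg, and rose in 11 of 12 in LSK. Megakaryocyte markers fell in 7 of 10 in LinNeg and in 9 of 9 in LSK. Mast cell and basophil markers fell in 7 of 10 and rose in 3 in LinNeg, and rose in 7 of 10 and fell in 1 in LSK. The 3 that rose in LinNeg were Cma1 at 7.53 (standard error 0.35), Tpsb2 at 7.52 (standard error 0.41) and Mcpt4. Mcpt4 stood at 11.13 (standard error 1.23), from a derived WT mean of 0.19. The 7 that fell include Mcpt8 at -3.77 (standard error 0.61) and Prss34 at -3.98 (standard error 0.67). Stem and primitive progenitor markers fell in 5 of 12 and rose in 3 in LinNeg, and fell in 10 of 12 and rose in 1 in LSK. Over all tested genes 19.3% were called lower and 22.1% higher in LinNeg, and 29.2% lower and 32.4% higher in LSK.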
